A study of Arabidopsis thaliana with 20 samples.

Results

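The genes described here are the core cell cycle regulators of Arabidopsis thaliana, given as a fixed list of 45 loci out of 27562 genes in the tables. The list held 10 D-type cyclins (CYCD), 10 A-type cyclins (CYCA), 10 B-type cyclins (CYCB), 5 cyclin-dependent kinases (*CDKA-1* and 4 CDKB genes), the 7 CDK inhibitors *KRP1* to *KRP7*, the 2 related inhibitors *SIM* and *SMR1*, and *RBR1*. Members were chosen by locus and class, not by measured values, although earlier results of these data were known. Gene names carry a hyphen as in protein databases, so that *CYCD3-3* stands for the locus that the annotation writes with a semicolon. The transcripts were measured by RNA-seq in inflorescence meristems (IM) and shoot apical meristems (SAM) of the *plt3 plt7* double mutant and of the wild-type accession Col-0, with 5 libraries in each of 4 groups.

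*plt3 plt7* is a CRISPR line in the Col-0 background that is mutated in *PLETHORA 3* and *PLETHORA 7*, a pair of transcription factor genes active in meristems. IMs came from plants 31 to 33 d post germination (dpg) on soil, and SAMs from seedlings of 7 dpg on mesh-covered agar plates, in each case about 50 hand-dissected apices to a library. The IM pieces still carried young flower primordia and the SAM pieces young leaf primordia. Age, substrate, light and harvest all went with tissue and cannot be told apart from it. IMs were harvested in 3 groups and SAMs in 4, each with both genotypes. The labels call the libraries of a group biological replicates, and every p-value refers to the spread between them.

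The plant cell cycle is driven by kinases that need a cyclin partner. D-type cyclins act with CDKA-1 at the start of the cycle, where the complex phosphorylates RBR1, the retinoblastoma homologue that holds back E2F transcription factors and with them the genes of DNA replication. A-type cyclins act during S phase and up to mitosis, and B-type cyclins together with the plant-specific CDKB kinases act around the entry into mitosis. KRP proteins (the plant relatives of animal p27) and the SIM and SMR proteins inhibit these complexes, and high levels of either group are known from cells that leave division or replicate DNA without dividing.

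The sequences just upstream of some members are shown first, because B-type cyclins and replication genes are known for short recurring words in their promoters. The windows are the 250 bases before the annotated gene start in the RefSeq annotation of TAIR10.1, 5′ to 3′ on the strand of the gene, and 44 of them were searched on both strands for 2 kinds of word. The first are mitosis-specific activator (MSA) words, which MYB3R factors are known to bind, spelled TCTAACGG, TCCAACGG, CCTAACGG or CCCAACGG, and they are in capitals below. The second are E2F words, spelled TTTCCCGC, TTTGGCGC, TTTCGCGC or TTTGCCGC. *CYCB1-1*, *CYCB1-2* and *CYCB2-2* are shown for their MSA words, and *KRP2* and *CYCA2-1* because they were the members called between the genotypes. *CYCB1-1* (chr4:17624309-17624558, minus strand), *CYCB1-2* (chr5:1861704-1861953, minus strand), *CYCB2-2* (chr4:16901346-16901595, plus strand), *KRP2* (chr3:18800056-18800305, plus strand) and *CYCA2-1* (chr5:8814267-8814516, plus strand) read as follows.
CYCB1-1: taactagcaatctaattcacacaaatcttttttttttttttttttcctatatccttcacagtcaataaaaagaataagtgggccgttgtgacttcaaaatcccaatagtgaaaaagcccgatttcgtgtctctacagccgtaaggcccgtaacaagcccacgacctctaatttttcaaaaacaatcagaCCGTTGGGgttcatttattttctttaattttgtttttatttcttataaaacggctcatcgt
CYCB1-2: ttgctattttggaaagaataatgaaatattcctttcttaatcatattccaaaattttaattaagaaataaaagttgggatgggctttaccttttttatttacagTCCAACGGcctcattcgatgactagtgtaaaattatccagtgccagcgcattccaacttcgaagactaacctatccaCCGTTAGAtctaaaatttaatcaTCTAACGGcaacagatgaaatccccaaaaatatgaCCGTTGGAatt
CYCB2-2: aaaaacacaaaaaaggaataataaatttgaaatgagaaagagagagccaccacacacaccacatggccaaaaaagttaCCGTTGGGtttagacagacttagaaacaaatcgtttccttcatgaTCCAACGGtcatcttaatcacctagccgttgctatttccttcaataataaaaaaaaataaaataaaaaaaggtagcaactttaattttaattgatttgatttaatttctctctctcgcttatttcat
KRP2: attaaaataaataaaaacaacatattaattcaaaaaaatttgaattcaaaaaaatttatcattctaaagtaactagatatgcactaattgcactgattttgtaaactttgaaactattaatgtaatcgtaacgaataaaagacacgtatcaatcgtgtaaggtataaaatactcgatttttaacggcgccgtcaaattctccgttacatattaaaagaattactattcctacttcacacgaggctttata
CYCA2-1: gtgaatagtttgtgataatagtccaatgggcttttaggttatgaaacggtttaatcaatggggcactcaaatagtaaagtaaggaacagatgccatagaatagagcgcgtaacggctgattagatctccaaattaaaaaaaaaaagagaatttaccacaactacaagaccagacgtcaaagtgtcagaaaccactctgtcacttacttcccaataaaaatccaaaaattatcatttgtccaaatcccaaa

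An MSA word lay in the windows of 6 of 10 CYCB genes (*CYCB1-1*, *CYCB1-2*, *CYCB1-3*, *CYCB2-1*, *CYCB2-2* and *CYCB2-3*) and of no other member searched. Across 27443 protein-coding genes, 1.79% of windows of this length held one. *CYCB1-2* had 4 such words, at 146, 69, 46 and 11 bases before the gene start, whereas *CYCB1-1* had 1 at 61 bases. E2F words were found in *CYCA1-2* (141 bases before the start) and *RBR1* (76 bases), 2 of the 44 windows, against 1.41% of all protein-coding genes. The shorter core AACGG, which every MSA word contains, was present in 17 of 44 windows and in 20.6% of all genes. *KRP2* and *CYCA2-1* each held this core, but neither of the longer words. A matching word is not a measured binding site.

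Library totals ran from 24.8 to 114.9 megacounts of estimated counts, and the members took 0.0882% to 0.155% of the TPM (the length-scaled share of a library's transcripts) of a library. *PLT3* transcript was called lower in *plt3 plt7* in both tissues (650 to 809 normalised counts in *plt3 plt7* IM against 1133 to 1444 in Col-0 IM, and 254 to 329 in *plt3 plt7* SAM against 432 to 714 in Col-0 SAM), whereas *PLT7* was not called in either. Mean fragment length was 370.1 ± 56.7 nt in *plt3 plt7* IM against 373.5 ± 32.2 nt in Col-0 IM, and 380.8 ± 29.6 nt in *plt3 plt7* SAM against 417 ± 8.47 nt in Col-0 SAM (SD, n = 5 each), and its part in the genotype differences of SAM was not tested. As for tissue identity, the 5 meristem markers (STM, KNAT1, CLV1, CLV3 and WUS) summed to 90.0 to 115.3 TPM in *plt3 plt7* IM and 95.8 to 114 TPM in Col-0 IM, and to 42.8 to 68.6 TPM in *plt3 plt7* SAM and 42.0 to 63.4 TPM in Col-0 SAM. The 5 floral markers summed to 726 to 798 TPM over the IM libraries, against 0.854 to 4.84 TPM over the SAM libraries. The 4 leaf photosynthesis markers summed to 3398 to 4387 TPM in IM, against 16781 to 27507 TPM in SAM, the 5 trichome and stomatal markers to 25.2 to 29.4 TPM against 42.4 to 53.0 TPM, and the 3 meiosis markers to 30.3 to 42.6 TPM against 33.9 to 41.9 TPM. No marker was at 0 throughout a group. The summed levels of all lists but the meiosis markers were separate between the tissues. Within the meristem list STM, KNAT1 and WUS were called higher in IM in both genotypes. CLV1 was called lower in both (log2 fold change -0.85 in *plt3 plt7* and -0.96 in Col-0). CLV3 was called lower in *plt3 plt7* (-2.38) and was below the filter in Col-0. Within the meiosis list DMC1 was called lower in IM (log2 fold change -0.50 in *plt3 plt7* and -0.51 in Col-0), whereas SDS (1.02 and 0.82) and SPO11-1 (0.78 and 0.67) were called higher in both genotypes. Markers of other cell types thus moved with tissue beside every IM to SAM difference below, and their part in those differences was not tested. In bulk tissue, fewer cells of a type and less RNA per cell cannot be told apart.

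To ask how the classes differed as wholes, TPM was summed over each class, as a description without a test. The CYCD sum was 398 ± 9.10 TPM in *plt3 plt7* IM and 405 ± 25 TPM in Col-0 IM, against 231 ± 6.80 TPM in *plt3 plt7* SAM and 256 ± 19.7 TPM in Col-0 SAM (SD, n = 5 each). The CYCB sum was 365 ± 18.3 TPM in *plt3 plt7* IM and 329.9 ± 20 TPM in Col-0 IM, against 241 ± 10.7 and 251 ± 17.5 TPM in the SAMs of *plt3 plt7* and Col-0. All classes but one stood higher in IM than in SAM on this scale, and their IM and SAM libraries did not overlap. *SIM* plus *SMR1* was the exception, with 26.5 ± 3.09 TPM in *plt3 plt7* IM and 28.5 ± 1.97 TPM in Col-0 IM against 46.8 ± 9.81 and 44.8 ± 5.49 TPM in SAMs of *plt3 plt7* and Col-0.

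TPM is a share of each library, and the median gene was itself 0.37 higher on the log2 scale in *plt3 plt7* IM than SAM, and 0.33 higher in Col-0 IM than SAM. Ratios after a further scaling that brings the median gene near 0 (a TMM-type factor) are therefore given beside them. For CYCD the IM over SAM ratio was 1.72 in *plt3 plt7* and 1.58 in Col-0, and 1.34 and 1.27 in the same order after that scaling. For CYCB it was 1.51 and 1.31, and 1.18 and 1.05 after scaling. The KRP ratio was 1.64 in *plt3 plt7* and 1.84 in Col-0 (1.28 and 1.48 after scaling), and that of *SIM* plus *SMR1* was 0.567 and 0.635 (0.446 and 0.511). Each class kept its direction, but the excess of the B-type cyclins in Col-0 IM shrank to 5% once the median gene was taken out. After that scaling the Col-0 libraries overlapped between the tissues in 2 classes. These were CYCB (273.9 to 304.0 in IM against 271.3 to 292 in SAM) and CYCA (161.4 to 188.9 in IM against 147.5 to 165.0 in SAM).

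**Figure D1:**
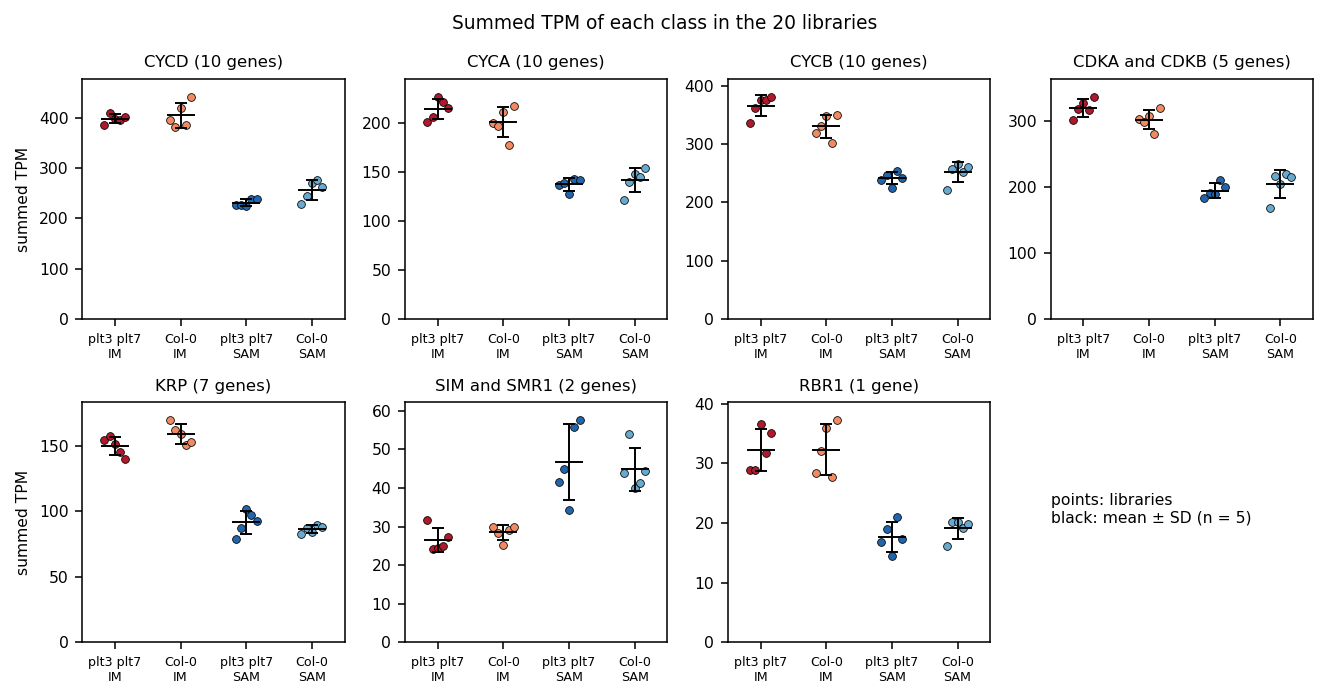
Summed TPM (y axes, from 0) of each class in the 20 libraries, by group (x axes). Points are libraries and black bars the mean ± SD (n = 5). The IM libraries lie above the SAM libraries in every class except SIM plus SMR1, where they lie below.

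Between the genotypes the class sums of *plt3 plt7* lay between 0.901 and 1.11 times those of Col-0. The CYCD sum was 0.982 times that of Col-0 in *plt3 plt7* IM and 0.901 times in *plt3 plt7* SAM (0.924 after the further scaling). The *RBR1* level was 0.999 times that of Col-0 in IM and 0.926 times in SAM. The CYCB sum was 1.11 times that of Col-0 in *plt3 plt7* IM and 0.960 times in *plt3 plt7* SAM, and the KRP sum 0.942 times in IM and 1.06 times in SAM. As a share of the summed TPM of all members, which no scaling of a library alters, CYCB took 24.3% ± 0.619 in *plt3 plt7* IM and 22.6% ± 0.471 in Col-0 IM (SD, n = 5 each). The libraries of both genotypes did not overlap in this share (23.3% to 24.8% in *plt3 plt7* IM against 22.1% to 23.2% in Col-0 IM), whereas in SAM they overlapped, with 25.1% ± 0.720 in *plt3 plt7* and 25% ± 0.568 in Col-0. CYCD took 26.4% ± 0.574 in *plt3 plt7* IM and 27.8% ± 0.787 in Col-0 IM, and 24.1% ± 0.530 in *plt3 plt7* SAM and 25.5% ± 0.993 in Col-0 SAM, with overlap in both tissues. KRP genes took 9.95% ± 0.652 in *plt3 plt7* IM against 10.9% ± 0.714 in Col-0 IM, and 9.53% ± 0.937 in *plt3 plt7* SAM against 8.62% ± 0.429 in Col-0 SAM, with overlap in both tissues.

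Single members were then compared with DESeq2, and a gene was called when its adjusted p was below 0.1 and its levels differed by more than 25% as a fold up or down. Gene positions below are those of TAIR10.1, and all values per library are normalised counts on 1 scale over the 20 libraries, and adjusted p-values are from DESeq2 over all tested genes. *CYCA3-3* had no count in any library and was not tested, and *CYCD7-1* (at most 34 counts in a library) passed the filter on low counts only for the genotype comparison in IM and the interaction. In *plt3 plt7*, 24 of 43 members were called between IM and SAM (18 higher and 6 lower in IM). This was 55.8% of the members, against 57.8% of all 19689 genes tested (26.4% higher and 31.3% lower). In Col-0, 21 of 43 were called (14 higher and 7 lower), which was 48.8% against 57.1% of all 19627 genes (26.7% higher and 30.5% lower). Without the minimum fold, 33 of 43 members passed in Col-0, against 75.2% of all genes. Thus the members were called about as often as other genes, with more of the calls upwards. In both genotypes 13 members were called higher in IM and 6 lower, and none was called in opposite directions. How many of all genes were called alike in both genotypes was not counted, so these numbers have no background beside them.

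**Figure D2:**
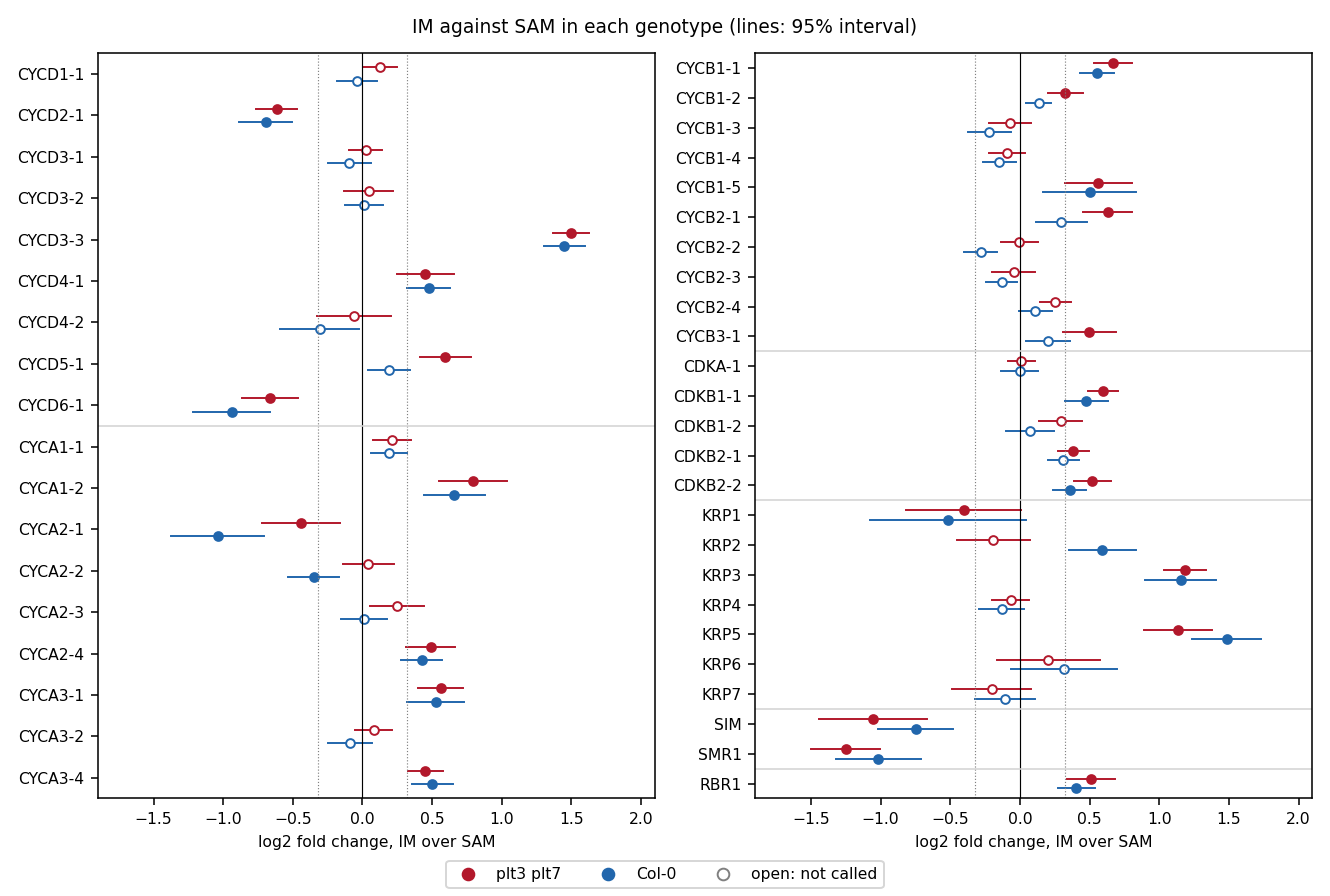
Log2 fold change of IM over SAM (x axis) for 43 members (y axis, by class, without CYCD7-1 and CYCA3-3) in plt3 plt7 (red, upper) and Col-0 (blue, lower), with 95% intervals from DESeq2. Filled points were called, and dotted lines mark the minimum fold for a call. CYCD3-3, KRP3 and KRP5 lie farthest to the right, and SMR1 and SIM are to the left in both genotypes.

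Among the D-type cyclins, *CYCD3-3* (AT3G50070, chromosome 3, 18565134 to 18566834), which acts downstream of cytokinin together with *CYCD3-1* and *CYCD3-2*, rose most in the IM. It had 5258, 5814, 4818, 5025 and 5139 normalised counts in *plt3 plt7* IM, against 1850.5, 1709, 1925, 1812 and 1920.3 in *plt3 plt7* SAM. In Col-0 it had 5729, 4925, 5423, 5292 and 5751 in IM, against 1850.1, 1793, 1959, 2281 and 2065 in SAM. No IM library came near a SAM library, and the log2 fold changes were 1.50 ± 0.065 (SE, adjusted p = 4.38e-116) in *plt3 plt7* and 1.45 ± 0.075 (adjusted p = 4.21e-81) in Col-0. Its closest relatives differed little between the tissues, with log2 fold changes of 0.023 ± 0.062 in *plt3 plt7* and -0.094 ± 0.079 in Col-0 for *CYCD3-1*, and of 0.044 ± 0.090 and 0.013 ± 0.070 for *CYCD3-2*. *CYCD3-3* made up 37.7% of the CYCD TPM in *plt3 plt7* IM and 38.5% in Col-0 IM, against 18.0% in *plt3 plt7* SAM and 18.0% in Col-0 SAM, where *CYCD3-2* held the largest part (30.5% and 31.2%).

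*CYCD2-1* and *CYCD6-1* fell in the IM in both genotypes. *CYCD6-1* (AT4G03270), known from the root where it drives an asymmetric division of the ground tissue, had 361 ± 30.7 normalised counts in *plt3 plt7* IM against 574 ± 64.6 in *plt3 plt7* SAM, and 334 ± 41.4 in Col-0 IM against 638 ± 117 in Col-0 SAM (SD, n = 5 each). These were log2 fold changes of -0.66 ± 0.10 (DESeq2 adjusted p = 3.3e-10) and -0.94 ± 0.14 (adjusted p = 8.51e-11). It shared 21% of its 31-base words, by which kallisto assigns reads, with other genes, chiefly AT4G03260 on the opposite strand (24.4 to 34.2 TPM over all libraries), so its level is uncertain. *CYCD2-1* (AT2G22490) changed on the log2 scale by -0.62 ± 0.074 in *plt3 plt7* (adjusted p = 2.84e-16) and by -0.70 ± 0.10 in Col-0 (adjusted p = 1.34e-12), and had 402 to 454 normalised counts in *plt3 plt7* IM against 607 to 682 in *plt3 plt7* SAM. *CYCD4-1* was called higher in IM in both genotypes (0.45 in *plt3 plt7* and 0.48 in Col-0), and *CYCD5-1* was called in *plt3 plt7* (0.59) but not in Col-0 (0.19). The difference between these 2 values for *CYCD5-1*, as the interaction, was 0.42 ± 0.12 and missed the threshold (DESeq2 adjusted p = 0.116). It passed on leaving out any of 5 libraries, which were *plt3 plt7* IM replicate 3, Col-0 IM replicate 3, *plt3 plt7* SAM replicate 1 and Col-0 SAM replicates 1 and 2 (adjusted p from 0.0397 to 0.0996).

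**Figure D3:**
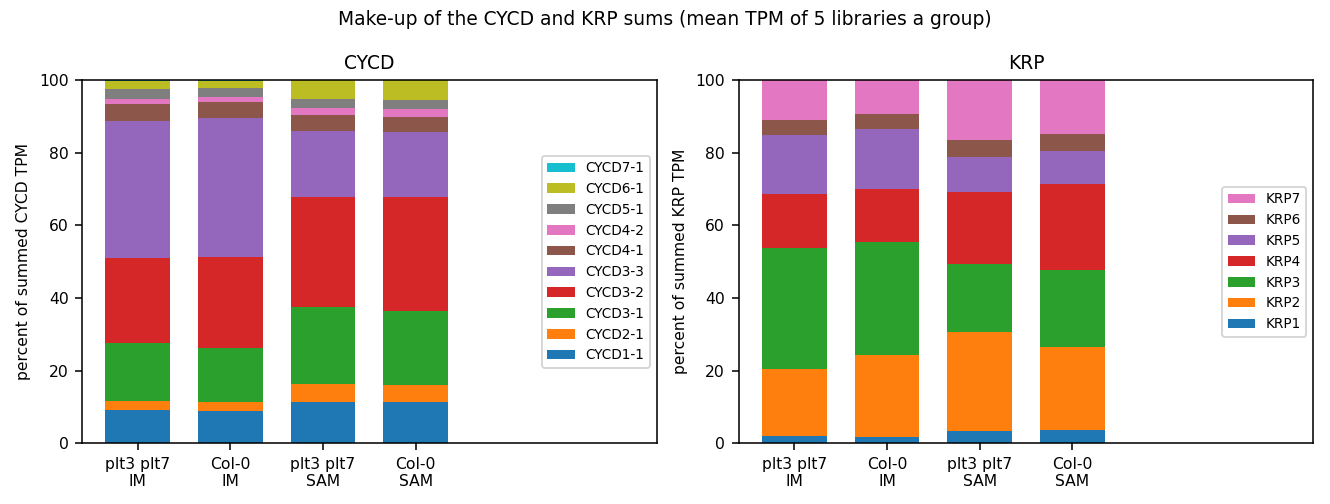
Percent of the summed CYCD TPM (left) and KRP TPM (right) taken by each gene (y axes, from 0 to 100), in the mean of 5 libraries for each group (x axes). CYCD3-3 takes 37.7% and 38.5% of the CYCD sum in IM of plt3 plt7 and Col-0, against 18.0% in each SAM group, and KRP3 takes 33.4% and 31.0% of the KRP sum in IM against 18.9% and 21.1% in SAM.

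A-type cyclins moved in both directions. *CYCA1-1*, the most abundant of them (37.6 TPM on average), had log2 fold changes of 0.21 in *plt3 plt7* and 0.19 in Col-0, below the minimum fold. *CYCA1-2* (AT1G77390, chromosome 1, 29081654 to 29084285), also known as TAM for its role in meiosis, had 255, 203, 259, 259.6 and 275 normalised counts in *plt3 plt7* IM, against 159, 150.0, 157, 133 and 128 in *plt3 plt7* SAM. In Col-0 the counts were 259.8, 280.3, 259, 276 and 255 in IM, against 179.6, 158, 176, 139.7 and 189 in SAM. Thus every IM library exceeded every SAM library, with log2 fold changes of 0.79 ± 0.12 (DESeq2 adjusted p = 6.27e-10) in *plt3 plt7* and 0.66 ± 0.11 (adjusted p = 1.08e-08) in Col-0. The meiosis markers SDS and SPO11-1 were also higher in IM and DMC1 lower, as given above. *CYCA3-1*, of the A3 group that peaks around S phase, rose by 0.56 ± 0.081 in *plt3 plt7* (adjusted p = 1.57e-11) and 0.53 ± 0.11 in Col-0 (adjusted p = 1.51e-06), and *CYCA2-4* and *CYCA3-4* were called higher in both genotypes as well (0.42 to 0.50).

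*CYCA2-1* (AT5G25380, chromosome 5, 8814517 to 8817887), one of 4 A2 cyclins that restrain the switch to endoreduplication, fell in the IM. It had 153, 139.7, 143, 170.0 and 184 normalised counts in *plt3 plt7* IM, against 261, 176, 184, 234 and 216 in *plt3 plt7* SAM. In Col-0 it had 118, 114, 116, 72.5 and 131 in IM, against 177, 229, 235, 273 and 227 in SAM. The groups were separate in Col-0 and overlapped in *plt3 plt7*, and the log2 fold changes were -0.44 ± 0.14 (DESeq2 adjusted p = 0.00345) in *plt3 plt7* and -1.04 ± 0.17 (adjusted p = 2.51e-09) in Col-0. *CYCA2-2* was called lower in Col-0 IM (-0.35, adjusted p = 0.000277) but not in *plt3 plt7* IM (0.043), a call that was lost without Col-0 IM replicate 4. *CYCA2-3*, the A2 cyclin with the highest mean level (27.7 TPM), was called in neither genotype.

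B-type cyclins differed among themselves, also those that carry MSA words. *CYCB1-1* (AT4G37490, chromosome 4, 17621886 to 17624308), widely used as a reporter of cells between G2 and mitosis, had 2106, 2327, 2176, 2058 and 2299.5 normalised counts in *plt3 plt7* IM, against 1399, 1441, 1513, 1232 and 1325 in *plt3 plt7* SAM. In Col-0 the counts were 2048, 1922, 1998, 1757 and 2063 in IM, against 1285, 1283, 1339, 1331 and 1437 in SAM. All IM libraries were above all SAM libraries (log2 fold change 0.67 ± 0.070, DESeq2 adjusted p = 9.84e-21 in *plt3 plt7*, and 0.55 ± 0.063, adjusted p = 7.23e-18 in Col-0). The most abundant, *CYCB1-2* (93.0 TPM on average), was called in *plt3 plt7* (0.33 ± 0.065, adjusted p = 1.17e-06) but lay near the minimum fold and was lost on leaving out any of 5 libraries (*plt3 plt7* SAM replicates 3, 4 and 5 and IM replicates 2 and 5). In Col-0 it was not called (0.14). Its level is less certain, as 19.4% of its words were shared with *CYCB1-5*. *CYCB1-5* was called higher in both genotypes (0.56 and 0.50 in *plt3 plt7* and Col-0), but 26.6% of its words were shared with other genes, including *CYCB1-2*, so its level is uncertain.

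*CYCB2-1* and *CYCB3-1* were called higher in *plt3 plt7* IM (0.63 and 0.50) and had log2 fold changes of 0.30 and 0.20 in Col-0, below the minimum fold. Of the 6 genes with an MSA word, the log2 fold changes of IM over SAM in Col-0 ran from -0.28 (*CYCB2-2*) to 0.55 (*CYCB1-1*), and of the 4 without from -0.15 (*CYCB1-4*) to 0.50 (*CYCB1-5*). The median over the class was 0.29 in *plt3 plt7* and 0.12 in Col-0, beside medians of 0.016 and 0.017 over all genes tested.

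Of the kinases, *CDKA-1* (AT3G48750), which partners D- and A-type cyclins, differed little between the tissues. It had 1877 ± 51.8 normalised counts in *plt3 plt7* IM against 1860.0 ± 68.8 in *plt3 plt7* SAM, and 1827 ± 105 in Col-0 IM against 1829.9 ± 127 in Col-0 SAM (SD, n = 5 each). The 95% intervals of its log2 fold change were -0.087 to 0.11 in *plt3 plt7* and -0.13 to 0.13 in Col-0. The mitotic CDKB kinases stood higher in IM. *CDKB1-1* (AT3G54180) had 1550.1, 1529, 1470.2, 1498 and 1624 normalised counts in *plt3 plt7* IM, against 1009, 1011, 1043, 989.6 and 1005 in *plt3 plt7* SAM, and rose by 0.60 ± 0.055 (DESeq2 adjusted p = 2.88e-27). In Col-0 it rose by 0.48 ± 0.079 (adjusted p = 4.99e-09), again without overlap (1305 to 1611 in IM against 952 to 1162 in SAM). *CDKB2-2* was called in both genotypes (0.52 in *plt3 plt7* and 0.36 in Col-0). It shared 11.9% of its words with AT1G20925 on the opposite strand, so its level is less certain. *CDKB2-1*, the kinase gene with the highest level (92.5 TPM), was called in *plt3 plt7* (0.38, adjusted p = 1e-10) and fell just short of the minimum fold in Col-0 (0.31, adjusted p = 6.05e-08). *CDKB1-2* was called in neither and shared 18% of its words with other genes.

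KRP inhibitors did not move as a block. *KRP5* (AT3G24810, chromosome 3, 9060836 to 9062003), studied mainly for its part in cell growth with endoreduplication, had 473, 539.6, 519.8, 449 and 436 normalised counts in *plt3 plt7* IM, against 159, 210.0, 244, 253 and 234 in *plt3 plt7* SAM. In Col-0 it had 633, 538, 526, 459 and 481 in IM, against 227, 201, 166, 179.8 and 173 in SAM. The tissues were far apart in both genotypes, by 1.13 ± 0.13 in *plt3 plt7* (DESeq2 adjusted p = 8.35e-19) and 1.48 ± 0.13 in Col-0 (adjusted p = 3.84e-31) on the log2 scale. *KRP3* (AT5G48820, chromosome 5, 19792270 to 19794480), the most abundant member of its class, had 1317, 1219, 1308, 1127 and 1178 normalised counts in *plt3 plt7* IM, against 491, 581, 559, 524 and 551 in *plt3 plt7* SAM. In Col-0 it had 1393, 1114, 1236, 1103 and 1230.3 in IM, against 537, 387, 521, 632 and 659 in SAM. It too was higher in every IM library, by 1.18 ± 0.076 (adjusted p = 2.99e-53) in *plt3 plt7* and 1.15 ± 0.13 (adjusted p = 4.14e-18) in Col-0.

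*KRP4*, *KRP6* and *KRP7* were not called between the tissues in either genotype, and *KRP4* shared 37.7% of its words, mostly with AT2G32720 on the opposite strand, so that its level is uncertain. *KRP1* was the lowest of the class (3.01 TPM on average) and only narrowly called lower in IM, with log2 fold changes of -0.40 ± 0.21 in *plt3 plt7* (DESeq2 adjusted p = 0.0738) and -0.52 ± 0.29 in Col-0 (adjusted p = 0.0956). Both calls were lost with edgeR and on leaving out single libraries (4 of 10 in *plt3 plt7* and 7 of 10 in Col-0), with adjusted p up to 0.192 and 0.429. *KRP2* was called higher in Col-0 IM and not in *plt3 plt7* IM, and is described with the genotypes.

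*SIM* and *SMR1* fell in the IM in both genotypes, whereas most of the called members rose. *SMR1* (AT3G10525, chromosome 3, 3281306 to 3282131), also called LGO and known for the giant cells of the sepal epidermis, had 256, 176, 187, 173 and 181 normalised counts in *plt3 plt7* IM, against 443, 448, 407, 485 and 527 in *plt3 plt7* SAM. In Col-0 it had 233, 211, 206, 167 and 178 in IM, against 512, 469.6, 316, 369 and 355 in SAM. The tissues did not overlap, and the log2 fold changes were -1.25 ± 0.13 (DESeq2 adjusted p = 3.52e-22) in *plt3 plt7* and -1.02 ± 0.15 (adjusted p = 1.32e-10) in Col-0. *SIM* (AT5G04470, chromosome 5, 1266625 to 1267416), which keeps trichomes single-celled, had 183 ± 22.5 normalised counts in *plt3 plt7* IM against 381 ± 120.5 in *plt3 plt7* SAM, and 205 ± 31.2 in Col-0 IM against 343 ± 36.8 in Col-0 SAM (SD, n = 5 each). It changed by -1.05 ± 0.20 (adjusted p = 2.94e-07) in *plt3 plt7* and -0.75 ± 0.14 (adjusted p = 1.34e-07) in Col-0. The summed trichome and stomatal markers moved the same way, as given above. Singly, all 5 were called lower in IM in Col-0, but 3 of 5 in *plt3 plt7*. There MUTE (-0.28) and FAMA (-0.032) were not called. The part of these markers was not tested. *SIM* and *SMR1* share 27.3% and 34.3% of their words with genes annotated on the opposite strand (AT5G04475 and AT3G10527), which were listed at 0 TPM in all libraries. As the strand setting of the read assignment is not given in the sources used here, the levels of *SIM* and *SMR1* are uncertain too.

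*RBR1* (AT3G12280, chromosome 3, 3913349 to 3919359) had 3571 ± 311 normalised counts in *plt3 plt7* IM against 2512 ± 274 in *plt3 plt7* SAM, and 3586 ± 329 in Col-0 IM against 2708 ± 79.4 in Col-0 SAM (SD, n = 5 each). It rose by 0.51 ± 0.089 (DESeq2 adjusted p = 2.87e-08) in *plt3 plt7* and by 0.41 ± 0.067 (adjusted p = 5.25e-09) in Col-0. Its lowest IM library exceeded its highest SAM library in both genotypes.

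Between the genotypes, each tissue had a fit of its own in which harvest group was a covariate. In SAM no member was called of 43 tested, with DESeq2 or edgeR, and 3 had an unadjusted p below 0.05 (*KRP2*, *SMR1* and *CYCD5-1*). An unadjusted DESeq2 p below 0.05 was found for 1336 of the 19185 genes tested. Over all 19185 genes 0.453% were called with DESeq2 (0.292% higher and 0.162% lower in *plt3 plt7*) and 0.0261% with edgeR. In IM 2 of 44 members were called, *KRP2* lower and *CYCA2-1* higher in *plt3 plt7*, against 1.53% of 19432 genes (0.458% higher and 1.07% lower). With edgeR *KRP2* alone was called, against 0.751% of all genes. Of the 22 markers of other cell types and of the meristem, 21 were tested in IM and 1 was called, the trichome gene GL1, at 11.2 to 34.8 normalised counts in *plt3 plt7* IM against 29.2 to 54.4 in Col-0 IM (log2 fold change -1.05, DESeq2 adjusted p = 0.0997). GL1 was also called in the interaction (-1.10, adjusted p = 0.0799). CAB1 (-0.21, adjusted p = 0.0203) and the floral gene PI (-0.20, adjusted p = 0.0837) were below the minimum fold in IM, and no marker was called in SAM (17 tested). The part of these markers in the genotype differences of the members was not tested.

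**Figure D4:**
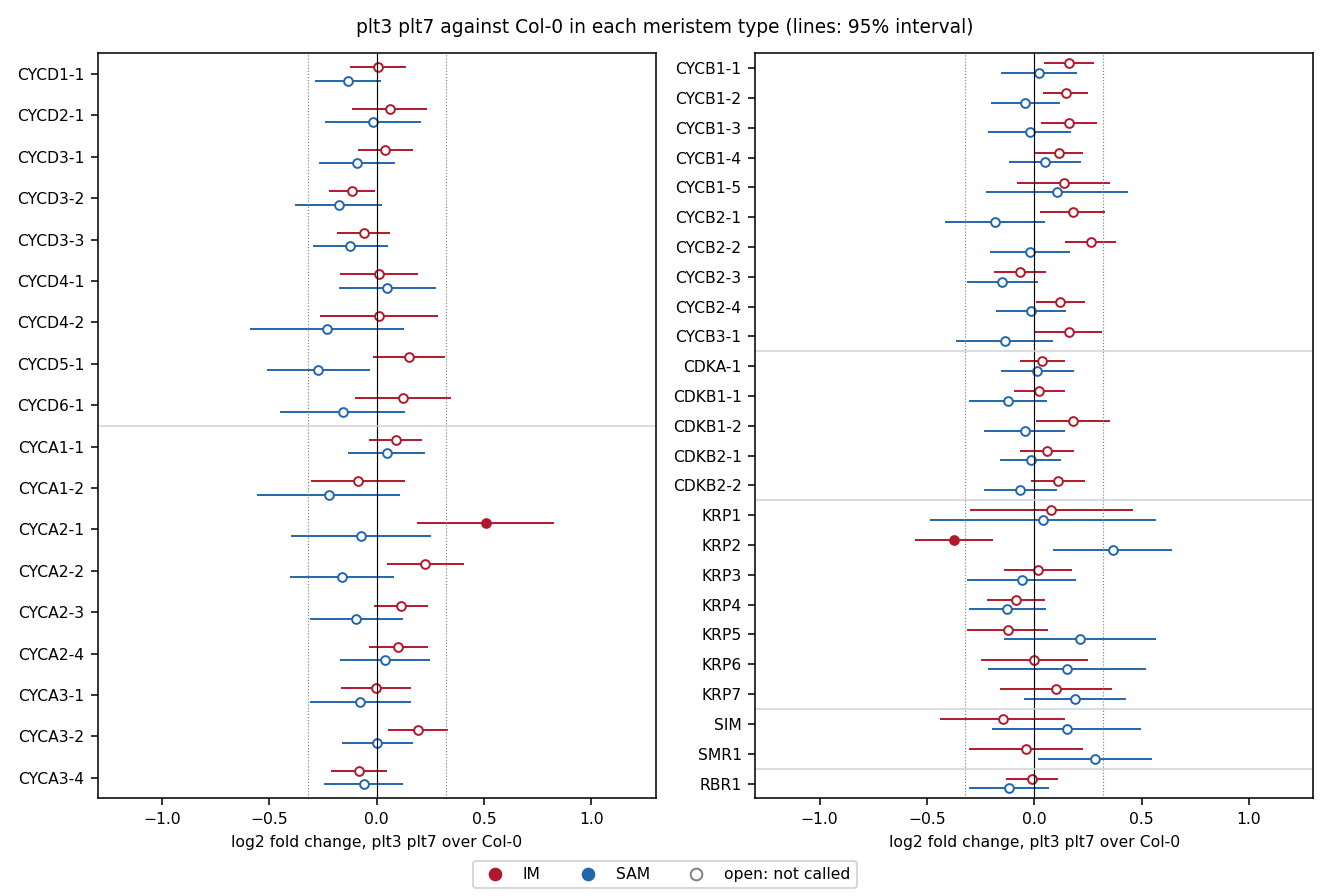
Log2 fold change of plt3 plt7 over Col-0 (x axis) for 43 members (y axis, by class, without CYCD7-1 and CYCA3-3) in IM (red, upper) and SAM (blue, lower), with 95% intervals from DESeq2. Filled points were called, and dotted lines mark the minimum fold for a call. The called points are KRP2 (-0.38) and CYCA2-1 (0.51), both in IM.

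*KRP2* (AT3G50630, chromosome 3, 18800306 to 18801595), an inhibitor that is best known for holding back the divisions that start lateral roots, was lower in the mutant IM. It had 654, 677, 687, 596 and 507 normalised counts in *plt3 plt7* IM, against 957, 946, 819.9, 661 and 684 in Col-0 IM. The highest mutant libraries overlapped the lowest of Col-0, and the log2 fold change was -0.38 ± 0.091 (DESeq2 adjusted p = 0.0039, and 0.0787 with edgeR). Within the 3 harvest groups of IM, with 2, 2 and 1 libraries of each genotype, the log2 ratios were -0.52, -0.21 and -0.43. The call held on leaving out any single library (adjusted p up to 0.0475). With no harvest group term, or in 1 fit of all 20 libraries, it was near the threshold (DESeq2 adjusted p = 0.0984 and 0.0865). In SAM the values went the other way, with 570.1, 619, 922, 771 and 683 normalised counts in *plt3 plt7* SAM, against 545, 603, 527, 549 and 483 in Col-0 SAM. That difference was 0.37 ± 0.14 and not called (DESeq2 adjusted p = 0.456). Of 10 fits lacking a library, 9 did not call it. It was called only without *plt3 plt7* SAM replicate 1 (0.51, adjusted p = 0.0996), and the log2 fold change ran from 0.27 to 0.51 over the 10. No other setting called it (adjusted p from 0.151 to 0.854, DESeq2 or edgeR). In harvest group 1 of SAM (1 *plt3 plt7* and 2 Col-0 libraries) the log2 ratio was near 0 (-0.0096). It was 0.55 in group 2 (2 *plt3 plt7* libraries and 1 of Col-0). In groups 3 and 4, each with only 1 library of each genotype, it was 0.49 and 0.50.

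*KRP2* was also the only member called in the interaction, the genotype difference in IM minus that in SAM, at -0.75 ± 0.17 (DESeq2 adjusted p = 0.0109, 0.206 with edgeR). Of 44 members tested this was 1 lower and none higher, against 0.354% of 20348 genes (0.108% higher and 0.246% lower, 0.0541% with edgeR). The call was lost without Col-0 SAM replicate 3 (adjusted p = 0.154), and held without any other library. Seen along the tissues, *KRP2* rose in Col-0 IM over Col-0 SAM by 0.59 ± 0.12 (adjusted p = 3.02e-06), with all IM libraries above all SAM libraries, and in *plt3 plt7* differed by -0.19 ± 0.13 (adjusted p = 0.191). None of its 31-base words was shared with another gene.

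**Figure D5:**
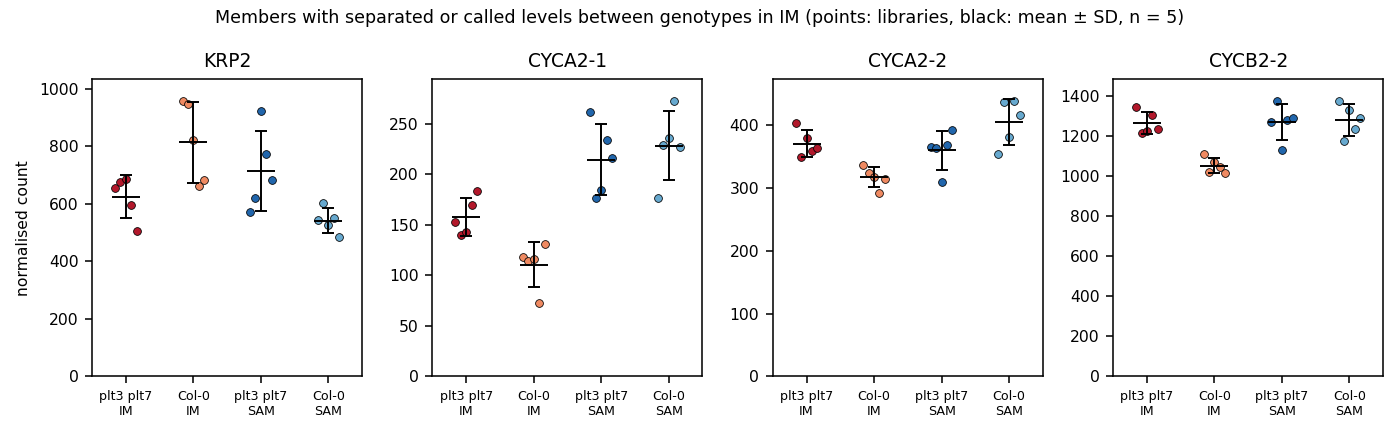
Normalised counts (y axes, from 0) of KRP2, CYCA2-1, CYCA2-2 and CYCB2-2 in the 20 libraries by group (x axes). Points are libraries and black bars the mean ± SD (n = 5). In IM the plt3 plt7 libraries lie above all Col-0 libraries for the 3 cyclins and mostly below them for KRP2, whereas the SAM groups overlap in all 4 genes. How many of all genes separate in this way was not counted.

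*CYCA2-1* was higher in *plt3 plt7* IM (153, 139.7, 143, 170.0 and 184 normalised counts) than in Col-0 IM (118, 114, 116, 72.5 and 131). All mutant libraries lay above all Col-0 libraries, and the log2 fold change was 0.51 ± 0.16 (DESeq2 adjusted p = 0.0673). The log2 ratios within the harvest groups of IM were 0.33, 0.73 and 0.49, the last with 1 library of each genotype. The call depended on the libraries and the tool. It was kept without Col-0 IM replicate 3, the only 1 of 10 fits lacking a library in which it was (adjusted p from 0.0599 to 0.304 over the 10), and was lost with edgeR (adjusted p = 0.215). In SAM it averaged 214 ± 35 in *plt3 plt7* and 228 ± 34.2 in Col-0 (SD, n = 5 each), and the interaction was 0.57 ± 0.22 (DESeq2 adjusted p = 0.402), or 0.75 (adjusted p = 0.0808) without *plt3 plt7* SAM replicate 1.

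*CYCB2-2* (AT4G35620, chromosome 4, 16901596 to 16904001), a mitotic cyclin, passed the adjusted p but not the minimum fold in IM. It had 1342, 1213, 1225, 1302 and 1233 normalised counts in *plt3 plt7* IM, against 1108, 1019, 1068, 1043 and 1014 in Col-0 IM, without overlap. The log2 fold change was 0.26 ± 0.058 (DESeq2 adjusted p = 0.00107). Within the harvest groups it was 0.26, 0.26 and 0.28, the last with 1 library of each genotype. With no minimum fold, 3 members passed in IM, against 2.57% of all genes. In SAM *CYCB2-2* averaged 1267 ± 88.6 in *plt3 plt7* and 1278 ± 78.1 in Col-0 (SD, n = 5 each). *CYCA2-2* was picked after its values were seen because its IM libraries did not overlap either. It had 403, 349, 379, 359 and 364 normalised counts in *plt3 plt7* IM, against 336, 324, 318, 292 and 315 in Col-0 IM. Its log2 fold change was 0.23 ± 0.089 and was not called (DESeq2 adjusted p = 0.247). How many of all genes separated between the genotypes in IM was not counted, so these separations have no background beside them.

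Counted over all members tested, those just described included, the genotype differences were mostly small, and in IM mostly in 1 direction. In IM 32 of 44 members had a positive log2 fold change (median 0.061), among them 9 of 10 CYCB genes (median 0.15, 8 with an unadjusted p below 0.05) and all 5 kinases (median 0.061), beside 48.0% of all genes (median -0.0048). Of the 44 members 14 had an unadjusted DESeq2 p below 0.05 in IM, beside 1990 of all 19432 genes. In SAM 15 of 43 were positive (median -0.045), with 3 of 10 CYCB genes, 1 of 9 CYCD genes and 5 of 7 KRP genes, beside 48.4% of all genes (median -0.0052). Members are not independent of each other, and none of these counts was tested. In the interaction all 10 CYCB genes and all 5 kinases were positive (medians 0.16 and 0.14), and 36 of 44 members in all, beside 48.3% of all genes. The genotype comparisons share their libraries with the tissue comparisons above.

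Other regulators of the cycle were counted from a list of 32 genes (E2F and DP factors, MYB3R factors, CDK-activating kinases, CKS, WEE1, activators of the anaphase-promoting complex and further SMR genes), of which 31 passed the filter. Between the genotypes none was called in SAM, in IM or in the interaction with DESeq2, and 0, 7 and 4 of them had an unadjusted p below 0.05. Over all genes these numbers were 1336 of 19185, 1990 of 19432 and 1688 of 20348. Between IM and SAM 17 were called in *plt3 plt7* (14 higher and 3 lower) and 15 in Col-0 (11 higher and 4 lower), or 54.8% and 48.4%. These shares lay near those of all genes (57.8% and 57.1%), as did those of the members.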

How the data were processed

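Reads were trimmed by the authors with fastp 0.23.4 and pseudoaligned with kallisto 0.46.1 to TAIR10 transcripts (the submitters' processing notes). Each deposited table gives estimated counts and TPM for 48266 transcripts, and the length columns served only for a length offset. Estimated counts were summed over the transcripts of each of 27562 loci and rounded to whole numbers. TPM as made by the authors was summed likewise. The filter for a comparison was 10 counts or more in 5 libraries or more. Genes that passed were tested with the Wald test of DESeq2 1.42.0 (R 4.3.3). Fits between genotypes included harvest group, fits between tissues had no covariate, and the interaction had harvest group nested in tissue. Calls needed a Benjamini-Hochberg adjusted p below 0.1 and a difference above 25% as a fold. edgeR 4.0.16 (quasi-likelihood test), TMM factors, other filters and thresholds, a length offset, a replicate block and leaving out each library were alternatives. Scripts were tested on simulated data. Members and lists were chosen with earlier results of these data known. Values are named for members called between genotypes or in the interaction and, per class, for the member with the highest mean TPM and up to 3 called the same way in both genotypes with the largest tissue differences. *CYCB2-2*, *CYCA2-2*, *CDKA-1* and other members given with values were added after their values were seen. The kit was directional, and the strand setting of kallisto is not given in the sources used here. No 2 libraries of a group agreed within sampling noise (lowest chi-square per degree of freedom 6.25). An upstream window of a member is not reported here.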

Additional observations from a re-analysis of the deposited data

Results flagged for a closer look

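In 6 of 104 groups of 5 libraries checked (5.77%, where chance gives about 1 in 20), a library lay far from the others of its group. *CYCA1-2* was lowest in *plt3 plt7* IM replicate 2, with 203 normalised counts against 255 to 275 in the rest. *CYCA2-1* was lowest in Col-0 IM replicate 4, with 72.5 against 114 to 131, and the genotype difference in IM without that library was 0.40 (DESeq2 adjusted p = 0.27). *CYCB1-5* was highest in Col-0 IM replicate 5, with 307 against 206 to 229. *CDKB2-2* was highest in *plt3 plt7* IM replicate 2, with 2471 against 2105 to 2209. *KRP1* was lowest in *plt3 plt7* IM replicate 5, with 45.9 against 81.6 to 89.5, and its tissue difference in *plt3 plt7* was no longer called without that library (-0.26, DESeq2 adjusted p = 0.183). *SMR1* was highest in *plt3 plt7* IM replicate 1, with 256 against 173 to 187.

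The genotype difference of *KRP2* differed between the tissues, by -0.75 on the log2 scale (DESeq2 adjusted p = 0.0109). It was -0.38 in IM, with 5 of 5 *plt3 plt7* libraries below the Col-0 mean, and 0.37 in SAM, with 5 of 5 above it.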

How the results depend on the processing

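No log2 fold change of the single members followed here changed direction under any alternative. Class sums that were nearly equal between the genotypes could do so. Without Col-0 IM replicate 5 the mean CYCD sum of Col-0 IM was 396 TPM (405 TPM with it), below the 398 TPM of *plt3 plt7* IM. Of members called between genotypes in IM (2), 1 remained a call with edgeR, with the replicate block and at an adjusted p below 0.05, and 1 to 2 when a library was left out. In SAM (0 called) leaving out a library gave 0 to 1. Between tissues in Col-0, 21 became 33 without the minimum fold. The interaction (1 called) gave 0 with edgeR, 2 with no harvest group term and 0 to 4 with a library left out (*CYCD5-1* was added in 5 such fits, *CYCB2-1* in 2, and *CYCA2-1* and *KRP5* in 1 each). With the TMM-type factor the IM over SAM ratios of class TPM in *plt3 plt7* and Col-0 were 1.34 and 1.27 for CYCD, 1.21 and 1.14 for CYCA, 1.18 and 1.05 for CYCB, 1.28 and 1.19 for CDK, 1.28 and 1.48 for KRP and 1.42 and 1.36 for *RBR1*, and 0.511 for *SIM* plus *SMR1* in Col-0. With nuclear genes alone the CYCD ratio in *plt3 plt7* was 1.62.

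Across the other settings 399 of 412 values of single members kept their side of the threshold, and across fits without 1 library 492 of 520. Replicate numbers were not taken to pair the libraries, since not every pair correlated above 0.1. In SAM replicate 2 also falls in different harvest groups of the 2 genotypes, whereas the other numbers share a harvest group. Same-numbered libraries deviated with r from -0.096 to 0.60 between genotypes in IM and from -0.16 to 0.24 in SAM (3 of 5 over 0.1 in each), and at most 2 of 5 correlated best with their own number. With the replicate block in IM *KRP2* was called and *CYCA2-1* was not (DESeq2 adjusted p = 0.13). The block gave 328 calls over all genes in IM (297 without it), 149 in SAM (87) and 143 for the interaction (72). In SAM 5 genes were called with edgeR, 51 with the length offset, 134 without the harvest group and 50 at an adjusted p below 0.05. In IM it was 146 with edgeR and 499 without a minimum fold, and in the interaction 11 with edgeR. Low counts kept *CYCA3-3* out of all tests and *CYCD7-1* out of 3 of 5.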

Other observations

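In Col-0 some B-type cyclins differed in sign from the rest of their class. *CYCB1-3*, *CYCB1-4*, *CYCB2-2* and *CYCB2-3* had negative log2 fold changes of IM over SAM in Col-0 (-0.22, -0.15, -0.28 and -0.13), whereas the other 6 CYCB genes were positive (0.11 to 0.55). Of these 4, *CYCB1-4* and *CYCB2-2* did not overlap between the tissues in Col-0, although none was called. In *plt3 plt7* the IM and SAM libraries of all 4 overlapped, and none was called there either. In SAM, *CYCD5-1* lay below Col-0 in all *plt3 plt7* libraries (-0.27 ± 0.12, DESeq2 adjusted p = 0.605) and *KRP7* above it (0.19 ± 0.12, adjusted p = 0.804), and neither was called. These genes were picked after their values were seen, and how many of all genes separated between groups in this way was not counted.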
